A study of Sus scrofa with 18 samples.

Results

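The 9 genes followed here through the growth of the fetal pig brain mark or direct the oligodendrocyte lineage: OLIG1, OLIG2, SOX10, NKX2-2, PDGFRA, CSPG4, GPR17, BCAS1 and MYRF. They were taken from the gene-wise count table by gene name, and 8 of the 9 had a row of that name among 31908 genes. MYRF had none. Messenger RNA from whole fetal brains was sequenced at gestation day (GD) 45, GD60 and GD90 in 18 libraries, 1 per fetus. The 6 groups of 3 fetuses were female GD45, female GD60, female GD90, male GD45, male GD60 and male GD90. All fetuses came from Landrace x Large White gilts inseminated with semen of the line LR-M6, and none was treated. Fetuses are named here by the number that the labels give each piglet.

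Oligodendrocytes form the myelin of the central nervous system and arise from proliferating precursor cells. The precursors are specified by transcription factors of the OLIG family and are kept dividing by platelet-derived growth factor, which they sense through the receptor PDGFRA. SOX10 and NKX2-2 act with the OLIG factors as precursors commit. Committed cells then pass through a stage marked by the receptor GPR17 and by BCAS1, and MYRF, a membrane-bound transcription factor, switches on the myelin genes. Each library holds RNA of a whole brain, so more cells of the lineage and more RNA per cell cannot be told apart in any of the values that follow.

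Positions are those of the count table, on the Sscrofa11.1 genome. OLIG2 (chr13:196599822-196600793) and OLIG1 (chr13:196644059-196646406) are neighbours on the plus strand, 43265 bases apart, and each has a single exon. SOX10 spans chr5:9891525-9959852 on the plus strand, NKX2-2 chr17:29275682-29278606 on the minus strand, PDGFRA chr8:40967493-41021442 on the plus strand and CSPG4 chr7:57949455-57988337 on the plus strand. GPR17 lies at chr15:59692992-59701266 and BCAS1 at chr17:54914756-55039346, both on the minus strand. The exons of SOX10 share 169 bases with those of POLR2F and the exons of GPR17 share 188 bases with those of LIMS2, in both cases on opposite strands. Whether reads were counted by strand was not stated, so reads in these stretches cannot be assigned to one gene of the pair.

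A gene without a name in the table, ENSSSCG00000013078, lies at chr2:9761232-9795843 on the minus strand, where RefSeq, on the same build, places MYRF (chr2:9761230-9795873, minus strand). Of its 5918 exon bases, 99.9% fall in RefSeq exons of MYRF. It is called the MYRF-locus gene below, is described beside the 8 named genes and is left out of every count over them.

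The 250 bases that precede the RefSeq start of a gene were read from the RefSeq sequence of Sscrofa11.1, on the strand of the gene. They are shown for a factor of the OLIG family (OLIG1), for SOX10 and for both genes of the later stage, all of which rose from GD60 to GD90. Capitals mark the matches to the 8 short motifs that were searched on both strands.
OLIG1: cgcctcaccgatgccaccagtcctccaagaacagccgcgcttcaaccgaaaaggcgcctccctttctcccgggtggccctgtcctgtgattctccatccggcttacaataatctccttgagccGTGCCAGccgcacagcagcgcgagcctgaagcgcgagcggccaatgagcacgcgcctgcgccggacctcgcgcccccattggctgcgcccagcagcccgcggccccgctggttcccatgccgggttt
SOX10: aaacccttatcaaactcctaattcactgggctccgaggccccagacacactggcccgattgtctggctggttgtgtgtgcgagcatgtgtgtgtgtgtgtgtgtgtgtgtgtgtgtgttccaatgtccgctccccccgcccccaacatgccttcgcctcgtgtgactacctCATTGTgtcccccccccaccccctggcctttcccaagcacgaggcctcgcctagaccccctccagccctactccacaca
GPR17: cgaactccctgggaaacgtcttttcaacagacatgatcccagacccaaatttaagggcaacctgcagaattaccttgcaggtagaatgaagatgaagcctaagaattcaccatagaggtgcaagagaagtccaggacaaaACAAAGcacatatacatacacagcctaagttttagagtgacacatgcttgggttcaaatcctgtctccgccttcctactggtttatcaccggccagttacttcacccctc
BCAS1: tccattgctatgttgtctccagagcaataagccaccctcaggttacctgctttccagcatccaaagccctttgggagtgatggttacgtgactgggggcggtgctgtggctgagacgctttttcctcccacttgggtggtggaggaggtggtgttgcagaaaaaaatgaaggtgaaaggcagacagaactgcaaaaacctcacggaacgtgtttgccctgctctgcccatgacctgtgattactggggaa

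These windows are chr13:196643815-196644064 (plus strand) for OLIG1, chr5:9890189-9890438 (plus) for SOX10, chr15:59702514-59702763 (minus) for GPR17 and chr17:55039471-55039720 (minus) for BCAS1. The motifs searched were the SOX cores ACAAAG and ACAATG, the E-boxes CAGCTG and CAGATG, the NKX2-2 core CACTTAA, the MYRF cores CTGGCAC and CTGGTAC, and the TATA box TATAAA. GPR17 held ACAAAG at -110 to -105 from its start, a motif found in 12.1% of the windows of 19569 protein-coding genes. SOX10 held the reverse complement of ACAATG at -79 to -74 (7.3% of windows), and OLIG1 the reverse complement of CTGGCAC at -127 to -121 (4.41%). CSPG4 held CAGCTG at -34 to -29 (13.6%), while no listed motif was found in the windows of BCAS1, OLIG2, NKX2-2, PDGFRA and MYRF. The windows also differed in base composition. Of those printed, OLIG1 had 67.2% G and C with 26 CG dinucleotides, GPR17 45.6% with 4 and BCAS1 52.4% with 5, and over all 9 genes the window of MYRF had the most, 79.6% with 34, where the median window of all genes had 57.6% and 12. Such matches describe these letters and say nothing of the binding of a factor.

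Total gene counts ran from 15118843 to 19729783 per library (median 16413097), and the smallest count of a named gene in a library was 54 reads, for BCAS1 in male GD45 replicate 17. That library stood apart. Its counts differed from those of the other male GD45 libraries by a chi-square of 109 and 129.6 per degree of freedom, where the other pairs of replicates reached 6.71 to 66.0. The highest of these, 66.0 and 48.5, were female GD60 replicate 15 against replicates 3 and 5, which reached 6.71 against each other. Male GD45 replicate 17 and female GD45 replicate 18 also have a litter size of 8 and brain weights of 0.7135 and 0.6653, against 1.55 to 1.86 in the other 4 GD45 fetuses, in the unit (mg) of the labels. That unit is doubtful, since the labels give the lengths of the same brains in centimetres. Among the 6 libraries of GD45, male replicate 17 had the lowest value of 4 of the 8 named genes and female replicate 18 of 3. Below, several results are given with and without them.

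Levels are given as CPM, the reads of a gene per 1000000 reads of its library, scaled by the TMM factors of edgeR, which correct for composition. OLIG1, a transcription factor of the OLIG family, had 115, 116 and 73.0 CPM in the female GD45 libraries (replicates 12, 13 and 18). It had 118, 75.8 and 95.4 CPM in the male GD45 libraries (11, 14 and 17). At GD60 it had 154, 171 and 159 CPM in females (3, 5 and 15) and 170.4, 199 and 196 CPM in males (4, 6 and 16), and at GD90 372, 367 and 362 CPM in females (2, 7 and 9) and 305, 303 and 239.8 CPM in males (1, 8 and 10). Each later day lay wholly above the earlier one. At GD90 every female library also lay above every male library for OLIG1. Of the other named genes, PDGFRA at GD90 and CSPG4 at GD45 split with males higher, and GPR17 at GD60 with females higher. How many of all genes split in this way was not counted, and OLIG1 did not pass the test between the sexes (adjusted p = 0.36, edgeR). The lowest, median and highest of the 6 libraries for OLIG2, its partner, were 10.5, 11.8 and 18.3 CPM at GD45, 18.0, 21.6 and 24.01 at GD60, and 33.3, 41.7 and 44.6 at GD90. GD45 and GD60 overlapped slightly for OLIG2, since 18.3 CPM in male GD45 replicate 11 exceeded the lowest 2 libraries of GD60.

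SOX10, which holds cells in the lineage, had 19.3, 19.5 and 13.6 CPM in female and 18.7, 15.7 and 12.05 CPM in male GD45 libraries. It had 29.5, 31.2 and 31.1 CPM in female and 25.7, 32.6 and 29.1 CPM in male GD60 libraries, and 116, 102 and 99.2 CPM in female and 107, 81.2 and 73.5 CPM in male GD90 libraries. The 3 days did not overlap, and the step to GD90 was the larger one. NKX2-2, a homeodomain factor of the ventral neural tube and of committed precursors, kept another course. Its 6 libraries ran from 7.33 to 12.2 CPM at GD45 (median 9.55) and from 7.17 to 10.9 CPM at GD60 (median 9.61), overlapping almost entirely, and only then from 14.3 to 23.3 CPM at GD90 (median 18.1).

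**Figure D1:**
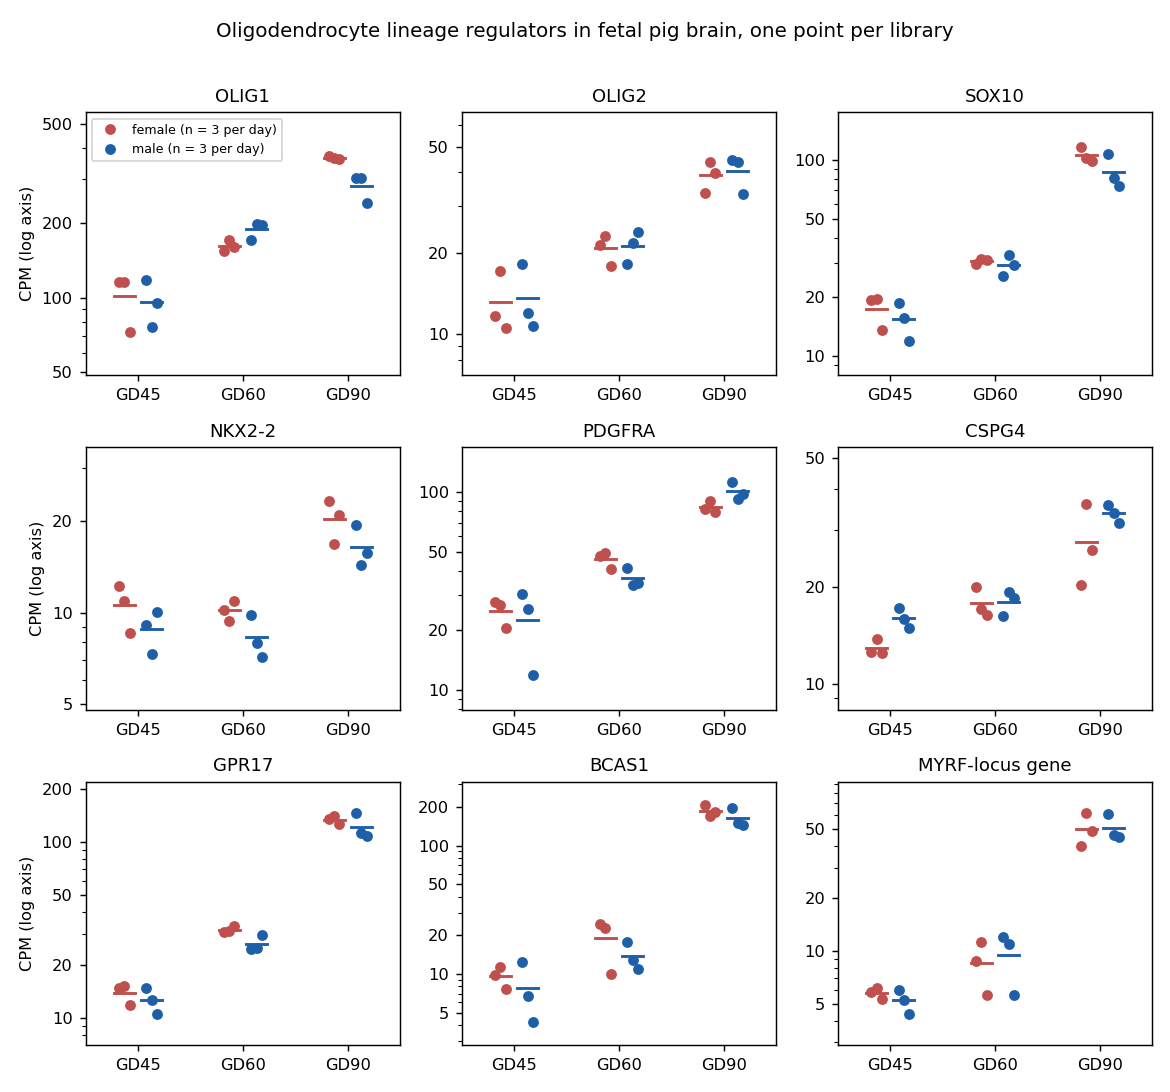
CPM (log axis) of the 8 named genes and of the MYRF-locus gene by gestation day, with 1 point per library, red for females and blue for males, and a bar at the mean of each group of 3. All 6 GD90 points lie above all 6 GD60 points in each of the 9 panels, and BCAS1 shows the widest span, from 4.20 to 208 CPM.

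PDGFRA, the growth factor receptor of precursors, had 27.8, 26.9 and 20.5 CPM in female and 30.6, 25.5 and 11.8 CPM in male GD45 libraries, the last being male replicate 17. Its GD60 libraries had 47.3, 49.0 and 40.9 CPM in females and 41.4, 33.8 and 34.5 CPM in males, and its GD90 libraries 82.6, 90.5 and 79.7 CPM in females and 112, 92.8 and 98.0 CPM in males. Days did not overlap. CSPG4, the surface proteoglycan NG2 of precursors and of pericytes, spanned a narrower range. Its median went from 14.3 CPM (12.4 to 17.2) at GD45 to 17.8 CPM (16.2 to 20.0) at GD60 and 32.7 CPM (20.3 to 36.0) at GD90. Female GD90 replicate 2, at 20.3 CPM, was barely above the highest GD60 library.

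GPR17, the receptor that is on for a short time in committed cells, had 14.8, 15.2 and 11.9 CPM in female and 14.9, 12.6 and 10.6 CPM in male GD45 libraries. It reached 30.7, 31.1 and 33.3 CPM in female and 24.6, 24.9 and 29.4 CPM in male GD60 libraries, and 135, 139.7 and 126 CPM in female and 145, 112 and 108 CPM in male GD90 libraries. Within a day the 6 libraries stayed close, and no day overlapped with the next. BCAS1, a marker of oligodendrocytes that begin to myelinate, had 9.89, 11.3 and 7.60 CPM in female and 12.5, 6.77 and 4.20 CPM in male GD45 libraries. At GD60 it had 24.7, 22.7 and 9.93 CPM in females and 17.7, 12.8 and 10.9 CPM in males, and at GD90 208, 170.0 and 184 CPM in females and 195, 150.3 and 144 CPM in males. GD45 and GD60 overlapped, whereas the lowest GD90 library lay far above both.

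The MYRF-locus gene had 5.81, 6.11 and 5.29 CPM in female and 6.01, 5.26 and 4.35 CPM in male GD45 libraries, and 39.97, 61.5 and 48.3 CPM in female and 60.8, 46.3 and 45.1 CPM in male GD90 libraries. Its GD60 libraries split. Female replicate 15 and male replicate 16, the pair with a litter size of 8, had 5.59 and 5.57 CPM, a level within the GD45 range, and the other 4 had 8.80 to 12.004 CPM. BCAS1 was also lowest in this pair, with 9.93 and 10.9 CPM against 12.8 to 24.7 CPM in the other 4, while GPR17 was not, with 33.3 and 29.4 CPM against 24.6 to 31.1 CPM. Whether litter size has a part in these values was not tested.

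Ratios of the day medians order the genes. From GD45 to GD90 the median CPM was 20.3 times higher for BCAS1, 9.50 times for GPR17, 8.52 times for the MYRF-locus gene, 5.84 times for SOX10, 3.53 times for OLIG2, 3.49 times for PDGFRA, 3.16 times for OLIG1, 2.28 times for CSPG4 and 1.90 times for NKX2-2. Leaving out both GD45 fetuses with a litter size of 8 gave 16.7 times for BCAS1 and 8.78 times for GPR17. OLIG2 then had 2.86 times, below PDGFRA (3.35) and OLIG1 (2.88), and the order of the other genes stayed the same. From GD60 to GD90 alone the ratios were 11.6 for BCAS1, 4.34 for GPR17, 4.78 for the MYRF-locus gene and 3.32 for SOX10. All 8 named genes had their 6 GD90 libraries above their 6 GD60 libraries, as did 12.9% of all genes tested. For GD60 against GD45 this held for 4 of 8, OLIG1, SOX10, PDGFRA and GPR17, against 4.62% of all genes. For GD90 against GD45 it held for 8 of 8, against 17.5%.

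The comparisons between gestation days were tested with edgeR's quasi-likelihood test on the counts of all 18 libraries, with p-values adjusted over the 16325 genes tested, and a change is named where the adjusted p was below 0.05. Log2 fold changes are given with their standard errors (SE). From GD45 to GD60, GPR17, SOX10, OLIG1 and PDGFRA rose in females, 4 of the 8 genes where 4.34% of all genes rose. GPR17, OLIG1 and SOX10 rose in males, 3 of 8 where 3.08% of all genes rose. None of the 8 fell, where 2.88% of all genes fell in females and 2.53% in males.

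GPR17 had the largest change of this period, with a log2 fold change of 1.18 (SE 0.15, adjusted p = 0.000284, edgeR) in females and 1.05 (SE 0.15, adjusted p = 0.000729) in males. SOX10 rose by 0.81 (SE 0.18, adjusted p = 0.0117, edgeR) on the log2 scale in females and 0.91 (SE 0.18, adjusted p = 0.00631) in males. OLIG1 rose by 0.67 (SE 0.17, adjusted p = 0.0266, edgeR) in females and 0.97 (SE 0.17, adjusted p = 0.00319) in males. PDGFRA rose by 0.87 (SE 0.23, adjusted p = 0.0319, edgeR) in females, and its value in males was 0.69 (SE 0.23, adjusted p = 0.106). The values of OLIG2 were 0.67 and 0.64, those of BCAS1 0.99 and 0.80, and those of CSPG4 0.46 and 0.17 in females and males, none past the threshold. For NKX2-2 both were near 0, at -0.06 (95% interval -0.43 to 0.31) and -0.08 (-0.46 to 0.29).

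With the mean of both sexes as the contrast, 6 of the 8 genes rose from GD45 to GD60, where 9.35% of all genes did. OLIG2, at 0.65 (SE 0.15, adjusted p = 0.00745, edgeR), and BCAS1, at 0.89 (SE 0.24, adjusted p = 0.0172), joined the 4 genes above, and the MYRF-locus gene had 0.72 (SE 0.20, adjusted p = 0.0192). CSPG4 (0.31, SE 0.12, adjusted p = 0.0857, edgeR) and NKX2-2 (-0.07, SE 0.13, adjusted p = 0.778) did not pass.

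Several calls of this first period were lost with 1 library left out, in fits that also called fewer of all genes. Without female GD45 replicate 18, where 548 genes of the table passed in place of 1178, only GPR17 remained past the threshold in females, with a log2 fold change of 0.48 for OLIG1 (adjusted p = 0.117, edgeR), 0.65 for SOX10 (adjusted p = 0.0695) and 0.74 for PDGFRA (adjusted p = 0.141). Leaving out female GD60 replicate 3 or 5 (531 and 634 genes) also ended the calls of OLIG1 (0.70 and 0.63) and PDGFRA (0.84 and 0.81) in females, and leaving out female GD45 replicate 12 or 13 (661 and 649 genes) that of PDGFRA (0.94 and 0.92), and these sizes stayed near those of the full fit. Calls were also gained in females. Without male GD45 replicate 17, OLIG2 (0.66, adjusted p = 0.0372, edgeR) and BCAS1 (0.98, adjusted p = 0.0341) passed, in a fit that called more of all genes. OLIG2 also passed without female GD45 replicate 13 (0.91, adjusted p = 0.0346, edgeR) or male GD45 replicate 11 (0.66, adjusted p = 0.0486). BCAS1 also passed without female GD60 replicate 15 (1.30, adjusted p = 0.0201, edgeR). Without male GD45 replicate 11 the count in males was 6 of 8, with OLIG2 (0.91), PDGFRA (0.96) and BCAS1 (1.32) added. Replicate 11 had the highest GD45 value of each of these added genes. The number of all genes called in that fit is not given here, so the gain has no background. Over both sexes, the call of BCAS1 was lost without female GD60 replicate 3 (0.78, adjusted p = 0.0529, edgeR) and without both GD45 fetuses with a litter size of 8 (0.67, adjusted p = 0.0549), and that of the MYRF-locus gene without those fetuses, female GD60 replicate 5, or male GD60 replicate 4 or 6 (0.59 to 0.66, adjusted p = 0.0513 to 0.0612). Summing the male and female of the same day and litter size left 5 of the 8 called over both sexes and ended the calls of BCAS1 (0.88, adjusted p = 0.0507, edgeR) and the MYRF-locus gene (0.72, adjusted p = 0.0578). How many of all genes passed with these pairs summed is not given here, so the loss has no background. Exon counts summed per gene left 4 of 8, without PDGFRA (0.96, adjusted p = 0.106, edgeR) and BCAS1 (0.91, adjusted p = 0.119).

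**Figure D2:**
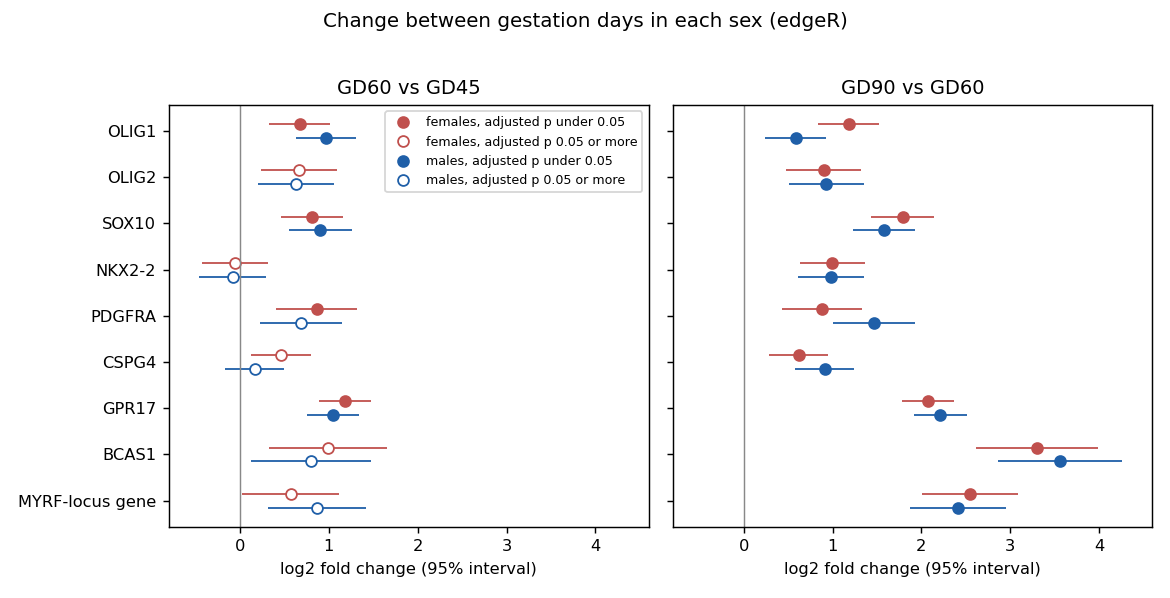
Log2 fold change from edgeR for GD60 against GD45 (left) and GD90 against GD60 (right), females in red and males in blue, with 95% intervals as lines and filled points where the adjusted p was below 0.05. All 18 points on the right are filled and to the right of 0, and on the left NKX2-2 lies at 0 in both sexes.

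From GD60 to GD90 all 8 genes rose in females, where 13.7% of all genes did, and all 8 rose in males, where 18.5% did. Over both sexes the count was again 8, against 21.4% of all genes, with log2 fold changes from 0.77 to 3.43 and a median of 1.08. The median of all genes tested was -0.01.

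The later-stage genes moved furthest. BCAS1 rose by 3.30 (SE 0.35, adjusted p = 4.62e-06, edgeR) in females and 3.56 (SE 0.36, adjusted p = 2.7e-06) in males, a fold of 9.83 and 11.8. GPR17 rose by 2.07 (SE 0.15, adjusted p = 8.44e-08, edgeR) and 2.21 (SE 0.15, adjusted p = 6.02e-08), and the MYRF-locus gene by 2.55 (SE 0.28, adjusted p = 6.02e-06) and 2.41 (SE 0.28, adjusted p = 9.61e-06). Among the transcription factors, SOX10 rose by 1.79 (SE 0.18) in females and 1.58 (SE 0.18) in males, NKX2-2 by 1.00 (SE 0.19) and 0.99 (SE 0.19), OLIG2 by 0.90 (SE 0.22) and 0.93 (SE 0.22), and OLIG1 by 1.18 (SE 0.17) and 0.58 (SE 0.17). Of the precursor surface genes, PDGFRA rose by 0.88 (SE 0.23) in females and 1.47 (SE 0.23) in males, and CSPG4 by 0.62 (SE 0.17) and 0.91 (SE 0.17).

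The adjusted p-values of this period lay at or below 0.016 for all 8 genes in both sexes (edgeR). The call of CSPG4 in females was lost without female GD90 replicate 7 (0.38, adjusted p = 0.0853, edgeR), and that of OLIG1 in males without male GD60 replicate 4, male GD90 replicate 1 or male GD90 replicate 8 (0.51, 0.52 and 0.51, adjusted p = 0.0559, 0.0577 and 0.0706). Over the whole span from GD45 to GD90 all 8 genes rose in both sexes, where 20% of all genes rose in females and 23.4% in males, and over both sexes, where 28.3% did. The log2 fold changes of that span over both sexes ran from 0.92 for NKX2-2 (SE 0.13) to 4.32 for BCAS1 (SE 0.26).

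Males and females of the same day were compared for the same genes, since sex is a main factor of the study. None of the 8 genes passed the test at GD45, GD60 or GD90, where 0.0919%, 0.098% and 0.098% of all genes did, and none passed with DESeq2. At GD90 a fit of only the 6 libraries compared called 1062 of 15427 genes in place of 16 of 16325, and again none of the 8. The log2 differences of males minus females ran from -0.28 to 0.31 at GD45, from -0.47 to 0.22 at GD60 and from -0.38 to 0.30 at GD90, with SE between 0.14 and 0.35. Of the 8 genes, only OLIG1 at GD90 had an unadjusted p below 0.05 (edgeR). On that day 13.6% of all genes did, which is near 1 of 8, against 2.59% at GD45 and 4.8% at GD60. For OLIG1 at GD90, males had a mean of 283 ± 37.2 CPM and females 367 ± 5.23 CPM (SD, n = 3 each). The log2 difference was -0.38 (95% interval -0.71 to -0.04, adjusted p = 0.36, edgeR). CSPG4 at GD45 stood the other way, with 14.9 to 17.2 CPM in males and 12.4 to 13.7 CPM in females (0.31, interval -0.03 to 0.65, adjusted p = 0.995, edgeR). For BCAS1 at GD60 the log2 difference was -0.47 with an interval of -1.12 to 0.19, so a difference of that size was not detectable with these fetuses.

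Whether the change itself differed between the sexes was tested as an interaction. No gene (0%) passed in either period by edgeR's quasi-likelihood test, though 333 genes (2.04%) for GD60 against GD45 and 3232 (19.8%) for GD90 against GD60 had an unadjusted p below 0.05, among the 8 only OLIG1 in the second period. DESeq2 called 2.01% and edgeR's likelihood ratio test 0.79% of all genes there, and neither called any of the 8. OLIG1 and PDGFRA leaned in opposite directions from GD60 to GD90, OLIG1 with a smaller step in males (-0.60, SE 0.24, adjusted p = 0.223, edgeR) and PDGFRA with a larger one (0.58, SE 0.32, adjusted p = 0.304). Without male GD45 replicate 17, PDGFRA passed (0.58, adjusted p = 0.0493, edgeR) in a fit that called 13.3% of all genes. Without both GD45 fetuses with a litter size of 8, OLIG1 (-0.62, adjusted p = 0.0464, edgeR) and PDGFRA (0.57, adjusted p = 0.0365) passed, where 12.7% of all genes did. Neither omission changes a library of the days compared.

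To compare levels between genes, CPM was divided by the length of each gene model in kilobases, giving FPKM. OLIG1 was highest at every day, with a median of 44.9 FPKM at GD45, 72.8 at GD60 and 142 at GD90. OLIG2 followed with 12.1, 22.2 and 42.9 FPKM, although its model holds 972 bases, a multiple of 3 that begins at 196599822 where RefSeq starts the gene at 196596838, so its length is a coding length. Neither overlapped with the gene below it. At GD45, NKX2-2 (4.74 FPKM), SOX10 (4.65), PDGFRA (3.94) and GPR17 (3.09) followed, each overlapping with the next, and CSPG4 (1.80), BCAS1 (1.15) and the MYRF-locus gene (0.94) came last, again with overlap between neighbours.

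At GD90 the order below OLIG2 had changed. GPR17 (29.3 FPKM), SOX10 (27.2) and BCAS1 (23.3) came next and overlapped with their neighbours, then PDGFRA (13.8) apart from both sides, then NKX2-2 (8.99) and the MYRF-locus gene (7.99), which overlapped, and CSPG4 last (4.11). BCAS1 thus moved from the 8th to the 5th place of the 9 and NKX2-2 from the 3rd to the 7th. With exon counts and exon lengths BCAS1 stood 6th and NKX2-2 5th at GD90.

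**Figure D3:**
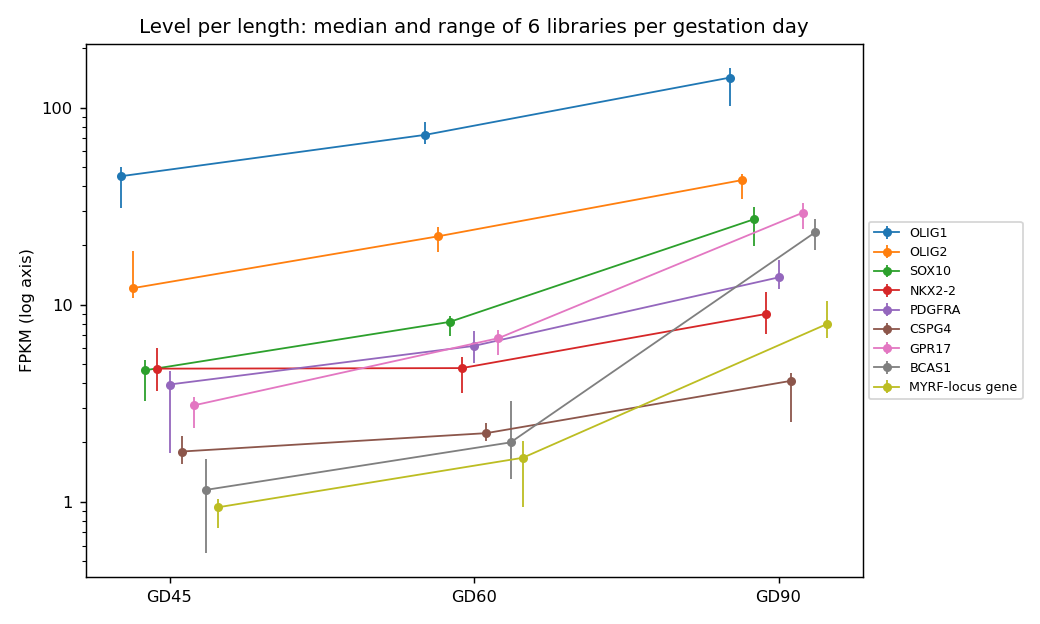
FPKM (log axis) of each gene by gestation day, as the median (points) and the range (lines) of 6 libraries, with small offsets between genes. BCAS1 (grey) climbs from 1.15 to 23.3 FPKM and crosses PDGFRA, NKX2-2 and CSPG4 between GD60 and GD90, and OLIG1 stays highest.

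The balance of stages was described in each library as the log2 ratio of the summed FPKM of GPR17 and BCAS1 to that of PDGFRA and CSPG4. At GD45 it was -0.31, -0.24 and -0.33 in females and -0.44, -0.64 and -0.32 in males, so the precursor genes had the larger sum per length in all 6 libraries. The GD60 libraries had 0.08, 0.07 and 0.10 in females and -0.07, -0.04 and 0.10 in males. The zero of the ratio depends on its scale, since the GD60 median was 0.07 per length but -0.40 with raw counts, where all 6 libraries were below 0. At GD90 the ratio was 1.95, 1.57 and 1.79 in females and 1.45, 1.31 and 1.21 in males. The days did not overlap, with medians of -0.33, 0.07 and 1.51, and at GD90 each female library lay above each male library. PDGFRA, part of the precursor sum, had 92.8 to 112 CPM in male and 79.7 to 90.5 CPM in female GD90 libraries. The genes of this ratio were chosen with their course known, so it carries no test between days or between sexes. With the MYRF-locus gene added to the later-stage sum the medians were -0.03, 0.27 and 1.75.

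**Figure D4:**
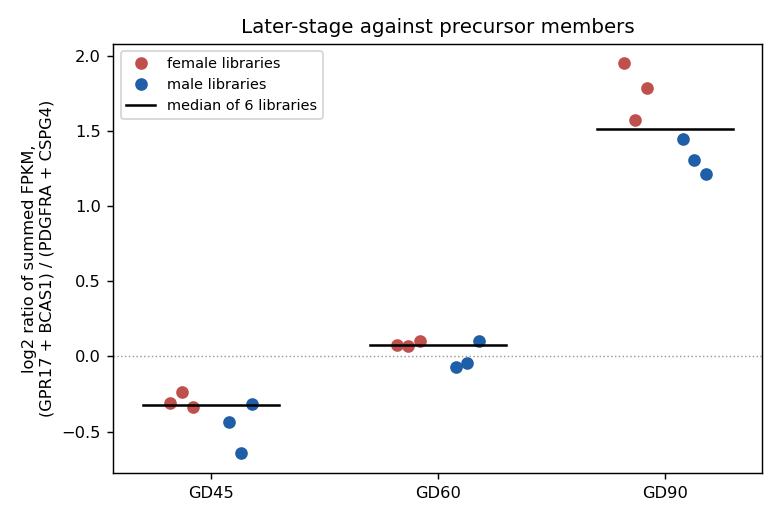
Log2 ratio of the summed FPKM of GPR17 and BCAS1 to that of PDGFRA and CSPG4, with 1 point per library, red for females and blue for males, and a line at the median of 6 libraries per day. The GD90 libraries lie between 1.21 and 1.95, above all GD60 libraries, which lie between -0.07 and 0.10.

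Between both precursor genes, the ratio of PDGFRA to CSPG4 counts was 0.79 in male GD45 replicate 17 and 1.61 to 2.22 in the other GD45 libraries, 1.75 to 2.87 at GD60 and 2.51 to 4.08 at GD90, so that neighbouring days overlapped. The ratio of BCAS1, a gene of the later stage, to OLIG1 counts ran from 0.04 to 0.11 at GD45, from 0.06 to 0.16 at GD60 and from 0.46 to 0.64 at GD90, and the GD90 libraries lay apart from both earlier days.

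The exon table is a second count of the same reads, in which 33 exons of the 8 genes were tested among 80134. Exons of the same gene come from the same libraries and are not independent. From GD60 to GD90, over both sexes, 21 of the 33 rose, where 6.48% of all exons rose. All 7 tested exons of BCAS1 rose, with values from 2.80 to 4.52, as did 7 of 14 of PDGFRA, 2 of 3 of SOX10, both of NKX2-2, and the single tested exons of OLIG1, OLIG2 and GPR17. None of the 4 tested exons of CSPG4 passed. Without male GD45 replicate 17, where more exons passed the filter, 29 of 40 exons of the 8 genes rose, among them 3 of 5 of CSPG4. The share of all exons that rose in that fit was not counted, so these counts have no background here. All 6 tested exons of the MYRF-locus gene rose, with values from 2.00 to 4.18. From GD45 to GD60, 2 of 33 rose, the exon of OLIG1 (0.74) and that of GPR17 (1.04), where 1.12% of all exons rose.

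The exon table holds fewer reads for some of these genes, with 16.7% of the gene-wise counts of PDGFRA, 29.3% of BCAS1, 21.7% of the MYRF-locus gene and 51.1% of SOX10, against 100% of OLIG1 and OLIG2. With exon counts and exon lengths PDGFRA stood in the 8th place per length at GD90. With exon counts summed per gene, its step in females from GD60 to GD90 kept its size (0.85) with an adjusted p of 0.25 (edgeR).

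Genes that act around these 8 were taken from lists of the lineage. Of 6 PDGF ligands and other receptors, 2 rose from GD45 to GD60 and 5 from GD60 to GD90 over both sexes, and none fell. PDGFA, the ligand of PDGFRA, had 23.3 ± 3.89 CPM at GD45, 34.9 ± 3.28 at GD60 and 59.3 ± 6.22 at GD90 (SD, n = 6 each). It rose in both periods and sexes, from GD60 to GD90 by 0.88 (SE 0.15) in females and 0.64 (SE 0.15) in males on the log2 scale. PDGFB, a second ligand, rose in that period by 0.81 (SE 0.12) in females and 0.42 (SE 0.12) in males.

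Of 21 other transcription factors of the lineage, 1 rose and 5 fell in the first period (median log2 fold change -0.36), and 6 rose and 4 fell in the second (median 0.08). KLF9, a thyroid hormone-responsive factor, rose throughout, from 2.24 ± 1.20 CPM at GD45 to 7.02 ± 1.78 at GD60 and 43.0 ± 2.81 at GD90 (SD, n = 6 each). NKX6-2 rose from GD60 to GD90 by 4.06 (SE 0.75) in females and 2.89 (SE 0.75) in males, from a mean of 0.13 to 1.58 CPM. SOX9, a glial factor that precedes SOX10, fell from GD45 to GD60 by 0.78 (SE 0.17) in females and by 0.65 (SE 0.17) in males. MYT1, a zinc finger factor of progenitors, fell from 48.1 ± 4.30 CPM at GD60 to 16.7 ± 2.12 at GD90, and SMARCA4, the ATPase of a chromatin remodelling complex, from 398 ± 23.7 to 274 ± 21.8 CPM (SD, n = 6 each).

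Of 10 genes that hold back differentiation, 2 rose and 2 fell in the first period and 2 rose and 6 fell in the second (median -0.44). ID4 and HES1, inhibitors of basic helix-loop-helix factors, fell from GD45 to GD60, ID4 from 212 ± 31.8 to 103 ± 20.4 CPM and HES1 from 28.8 ± 7.51 to 14.8 ± 2.24 CPM (SD, n = 6 each). SOX11 fell from GD60 to GD90, from 86.9 ± 29.4 to 26.7 ± 5.52 CPM, and BMP4, a ligand that turns precursors from the lineage, from 15.3 ± 3.16 to 7.78 ± 0.90 CPM. GPR37 and LINGO1 moved the other way and rose in that period, GPR37 by 1.06 (SE 0.21) in females and 1.23 (SE 0.21) in males and LINGO1 by 0.70 (SE 0.10) and 0.33 (SE 0.10).

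Of 15 other surface and matrix genes of precursors, 5 rose in the first period and 10 rose and 1 fell in the second, with a median of 0.62. CSPG5 rose from GD45 to GD60 from 199.6 ± 25.1 to 319 ± 21.5 CPM (SD, n = 6 each), NEU4, a sialidase, from GD60 to GD90 by 2.55 (SE 0.53) in females and 3.25 (SE 0.53) in males, and SCRG1 by 1.86 (SE 0.30) and 1.67 (SE 0.30). VCAN, the matrix proteoglycan versican, fell in the second period by 1.51 (SE 0.16) in females and by 0.61 (SE 0.16) in males. Of 14 genes of committed cells 3 rose in the first period, among them LIMS2 by 0.67 (SE 0.17) and 0.70 (SE 0.17), whose exons overlap those of GPR17. In the second 6 rose and 3 fell, with CD9 at 2.44 (SE 0.24) and 1.92 (SE 0.24), S1PR5 at 2.37 (SE 0.31) and 1.89 (SE 0.31), and BMPER at -0.41 (SE 0.14) and -0.38 (SE 0.14) in females and males. Of the myelin list, 3 of 10 rose and 1 fell from GD45 to GD60, and all 10 rose from GD60 to GD90, with a median of 5.48. The lists were drawn up with results of these data known, so their counts describe them and do not test them, and 16.7% and 42.4% of all genes passed in either direction in these comparisons over both sexes.

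**Figure D5:**
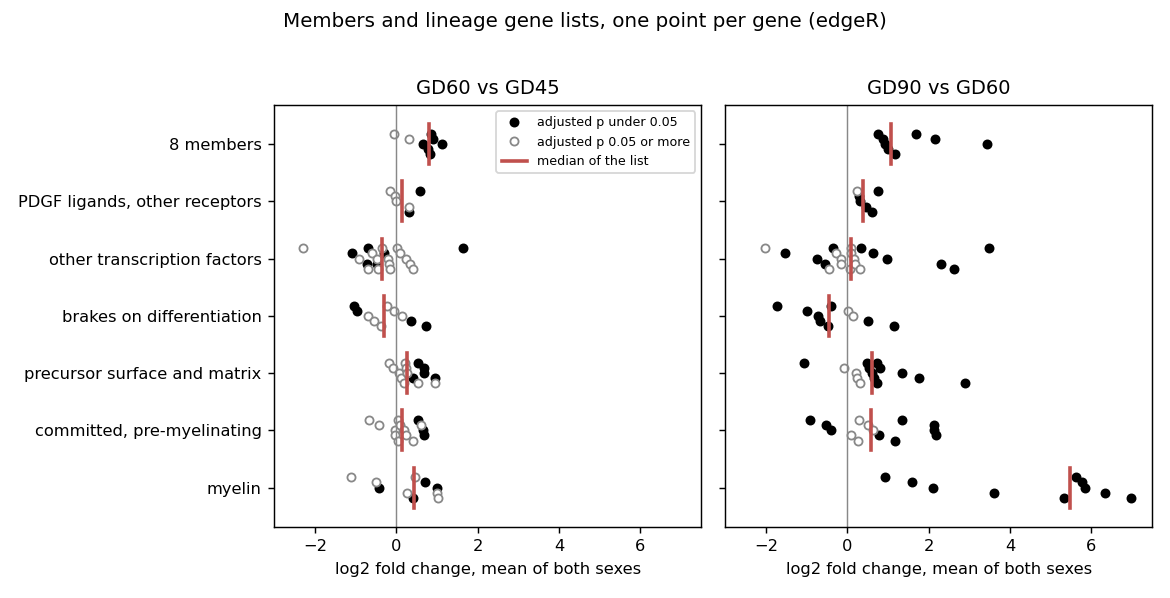
Log2 fold change over both sexes (edgeR), 1 point per gene, for the 8 named genes and 6 lists of the lineage, with filled points where the adjusted p was below 0.05 and a red line at each median. In GD90 against GD60 (right) the myelin list has its median at 5.48, the 8 genes at 1.08 and the brakes on differentiation at -0.44.

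Some of the 8 genes are also used outside the lineage, and the markers of those cells were read in the same libraries. Pericytes carry CSPG4. Of 8 pericyte markers tested, 3 rose and none fell from GD60 to GD90, their sum ran from 156 to 180 CPM at GD60 and from 235 to 281 at GD90, and HIGD1B was at or near 0 in all libraries. Mesenchymal and meningeal cells carry PDGFRA. Their 10 markers summed to 1111 to 1369 CPM at GD60 and 1187 to 1540 at GD90, with 2 higher and 3 lower. COL1A1 had 337 to 475 CPM at GD60 and 542 to 668 CPM at GD90. COL3A1 went the other way, with 306 to 401 CPM at GD60 and 198 to 294 CPM at GD90. So did DCN, with 41.4 to 71.6 CPM and 19.1 to 31.9 CPM. Schwann and neural crest cells carry SOX10. Their list summed to 345 to 683 CPM at GD60 and 221 to 447 at GD90, with 3 of 7 tested higher and 2 lower. Most of the sum was ERBB3, with 173 to 383 CPM at GD90, which the list of committed cells also holds, so the sum is not particular to Schwann and neural crest cells. PMP22 (19.6 to 34.2 CPM) was also present, while CDH19 and TYRP1 stayed at or below 0.41 and 0.13 CPM. NKX2-2 is also a pancreatic factor. The pancreatic list summed to 34.6 to 63.3 CPM at GD60 and 25.9 to 85.8 at GD90, when NEUROD1, which neurons also express, had 23.6 to 72.2 CPM and CEL up to 10.6 CPM, with none of 4 tested past the threshold, and PDX1 and CELA2A had no read in any library. Markers of other brain cells also rose from GD60 to GD90, 6 of 8 for radial glia and astrocytes (1 fell), 7 of 7 for microglia and 5 of 8 for neurons (1 fell). The part of these cells in the values of the 8 genes was not tested.

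The genes nearest to each of the 8 were sought by the root mean square difference of centred log2 CPM over the 18 libraries, among 12802 other genes with a symbol and a mean of at least 1 CPM. For OLIG1 they were RASGRP2 (0.13), BCAN (0.13) and MFGE8 (0.17), and for OLIG2 HCN2 (0.17), AGAP2 (0.18) and BCAN (0.19), so that the proteoglycan gene BCAN stood in both. SOX10 was followed most closely by SYNGR3 (0.18), CYP46A1 (0.19) and ATP1B2 (0.21), NKX2-2 by HEY1 (0.17), SLC25A5 (0.17) and HIGD1A (0.19), PDGFRA by genes that include DIRAS2 (0.16) and CADPS2 (0.17), and CSPG4 by ADARB1 (0.13), SCRN1 (0.16) and CEP170B (0.17). GPR17 had KCNV1 (0.20), CAMK2A (0.21) and MLC1 (0.22), and the MYRF-locus gene CNTNAP1 (0.26), KCNJ10 (0.30) and MYRIP (0.35). BCAS1 had the most distant neighbours, LPL (0.38), S100A1 (0.39) and MFSD4A (0.40). Among the 8 genes themselves the closest pair was OLIG1 and OLIG2 (0.23), the neighbours on chromosome 13, followed by OLIG2 and CSPG4 (0.31) and SOX10 and GPR17 (0.32).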

How the data were processed

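RNA of 18 whole fetal brains was enriched for mRNA and sequenced. The authors trimmed the reads with Trimmomatic, mapped them to Sscrofa11.1 with HISAT2 and counted them on Ensembl features with featureCounts, after a check with FastQC, and the deposited tables hold raw counts per gene and per exon, without normalization. Options for strand and for shared reads are not given in the sources used here. The table has 22 count columns, since 4 libraries have a second run, and both runs were summed (their chi-square over genes was 1.61 to 1.67 times its degrees of freedom). A transcript table was not used here.

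Genes were filtered with filterByExpr (16325 genes, 99.9% of the counts), scaled by TMM and fitted in edgeR 4.0.16 (R 4.3.3) as 1 model of 6 groups, with the quasi-likelihood F test, Benjamini-Hochberg adjustment and a threshold of 0.05. Intervals are log2 fold changes ± 1.96 SE. Exons were fitted the same way. CPM used TMM-scaled totals, FPKM the gene lengths of the table, and log2 CPM a prior count of 2. The file names 16719 genes, and a gene name table gave 782 more symbols. Promoter windows and the MYRF locus were read from RefSeq with Python 3.11.15. The fits were tested on simulated counts.

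The genes and lists were chosen with earlier results of these data known. Named were the 9 genes, the 2 genes of each lineage list with the largest rise and the 2 with the largest fall per period among those called in both sexes, and the 3 nearest genes by log2 CPM with a mean of at least 1 CPM, of which 1 is not reported here. The labels share no replicate numbers between groups and do not name dams. A male and a female of each day share a litter size, and deviations of these 9 pairs correlated between -0.09 and 0.42, with 5 above 0.1. Each of those 5 exceeded the highest correlation of the other pairings it was set against, and the remaining pairs did not. Whether the pairs are littermates was not tested, and the main fit did not take them as pairs. P-values measure the spread between fetuses, which are treated as independent. Reads carry no molecular identifiers, so counting error is a lower limit. Listed genes without a row of that name were left out, among them CHRM1, SOX4, PCDH15, MOBP, TWIST1, SOX2, CTRB2, HOPX and TMEM119. Alternatives included DESeq2 1.42.0, other scalings and filters, exon counts, smaller models and each library left out.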

Additional observations from a re-analysis of the deposited data

How the results depend on the processing

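The counts of the 8 genes called for GD90 against GD60 and GD90 against GD45, 8 in each sex and over both sexes, and the 0 called between the sexes stayed within 1.5 times under every alternative run. Those of the first period did not. In females from GD45 to GD60, 4 genes passed, 2 with exon counts summed per gene and 1 to 6 with a library left out. In males, 3 passed, 0 with only the 6 libraries compared, where no gene of the table passed, and 3 to 6 with a library left out. OLIG2 (adjusted p = 0.0346) and BCAS1 (0.0372) passed in females with DESeq2, CSPG4 passed over both sexes without female GD90 replicate 2 or 7 (0.0489 and 0.0378, edgeR), and the later call of CSPG4 in females was lost with only the 6 libraries compared (0.0634, edgeR). For the interaction from GD60 to GD90 the 0 became 1 without male GD45 replicate 17 and 2 without that library and female GD45 replicate 18, an alternative chosen after seeing the data. With libraries left out the log2 fold change of NKX2-2 from GD45 to GD60 ran from -0.19 to 0.057 in females and from -0.22 to 0.022 in males, and turned positive in females without female GD45 replicate 12 and in males without male GD60 replicate 16 (0.013) or without both GD45 fetuses with a litter size of 8. The median stage ratio of GD90 minus that of GD45 was 1.84, and 2.16 with the mean of log2 CPM in place of sums. DESeq2 called 5 genes of committed cells from GD45 to GD60 in place of 3. Counts over all genes also moved by more than 1.5 times, from 1178 to 1806 with DESeq2 for females from GD45 to GD60 and from 916 to 1411 for males, and to 537 and 400 with exon counts. Leaving out male GD45 replicate 17 gave 2329 and 1550, female GD60 replicate 3 gave 531 in females and male GD60 replicate 6 gave 476 in males. Genes called between the sexes at GD90 went from 16 to 1062 with only the 6 libraries compared, 52 with DESeq2 and 42 with the likelihood ratio test, and over both sexes from GD45 to GD60 from 2730 to 1703 with exon counts. From GD60 to GD90, 4426 genes in females became 2791 with exon counts. Of the interaction from GD60 to GD90, the 0 genes became 277 with DESeq2, 129 with the likelihood ratio test, and 2209 and 2104 without 1 or both of the GD45 libraries named above. The causes were not tested. The litter-size pair as a replicate block called 0 of the 8 genes between the sexes at each day, as the fit without it did. With these pairs summed, 5 of the 8 genes passed from GD45 to GD60 over both sexes in place of 6, without BCAS1, and 4 passed with exon counts. The share of all genes that passed with the pairs summed is not given here. The median stage ratio at GD60 was 0.07, and -0.40 on raw counts. The fewest reads behind a value were 54 for BCAS1 and 56 for the MYRF-locus gene, both at GD45.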
